A study of Mus musculus with 6 samples.

Results

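Axon guidance ligands and receptors of the netrin, Slit, ephrin and semaphorin pathways were described in the mouse brainstem at P21, across 51 genes taken by name from the deposited transcript assembly. All 51 were found among the 34632 loci of the table, at 1 locus each, and all 51 were among the 21854 loci tested. The brainstems came from pups treated with tamoxifen from P1 to P4, and every animal carried both floxed *Hoxa5* alleles. The 3 *Hoxa5* control libraries (Hoxa5flox/flox;CMV-CreERT2-/-) had no Cre, and the 3 *Hoxa5* cKO libraries (Hoxa5flox/flox;CMV-CreERT2+/-) came from littermates with a tamoxifen-inducible Cre under the broadly active CMV promoter. Each library was made from the pooled RNA of 3 brainstems, so single animals and single brainstem nuclei could not be seen. In whole-tissue RNA, fewer cells of a type and less RNA per cell cannot be told apart.

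Growing axons find their targets by reading secreted and membrane-bound ligands with receptors on the growth cone. Netrins attract through Dcc and neogenin and repel when Unc5 receptors take part, and Slits repel through Robo receptors. Ephrins and Eph receptors signal between touching cells in both directions, and semaphorins act through plexins, with neuropilins as co-receptors of the secreted class. In the hindbrain these systems steer precerebellar neurons and commissural axons before birth, and many of their genes stay active in mature neurons and glia.

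The libraries held 12034613 to 13202707 fragments. The *Hoxa5* locus, which the assembly joins with *Hoxa6* and 2700086A05Rik, did not follow the labels. It had 16.5, 27.4 and 5.82 CPM (fragments relative to the TMM-scaled total of each library) in control replicates 1, 2 and 3, and 23.3, 4.37 and 4.97 CPM in cKO replicates 1, 2 and 3. Its log2 fold change was -0.62 (SE 0.48, adjusted p = 0.893 from edgeR), and -1.82 (adjusted p = 0.0318 from edgeR) without cKO replicate 1. That library had the highest cKO value, so leaving it out was bound to give a larger fall. Control and cKO are used here as the labels give them. The markers of brainstem neurons were present in every library, at a summed level of 548 to 588 CPM in controls and 578 to 620 CPM in cKO. Summed markers of 3 cerebellar cell types, granule neurons, Purkinje cells and Bergmann glia, were lower in the cKO libraries. Not all of these markers are restricted to the cerebellum.

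None of the 51 members was called between *Hoxa5* cKO and control at an adjusted p under 0.05 by edgeR's quasi-likelihood test, adjusted over all loci tested. Over all loci, 0.503% were called lower and 0.0275% were called higher in cKO. Before adjustment, a p under 0.05 was reached by 5 members on the lower side and 3 on the higher side, as it was by 4.03% and 2.91% of all loci. DESeq2 and limma on FPKM also called 0 members. Their p under 0.05 before adjustment covered 3 lower and 0 higher members for DESeq2, and 2 lower and 2 higher for limma. Over the whole table limma called 0 loci on log2(FPKM + 1) and 1 on log2(FPKM + 0.1). Its lack of calls therefore says little about the members. The counts at an unadjusted p moved with single libraries. Without control replicate 1 they were 2 lower and 0 higher, and without cKO replicate 3 they were 3 and 1. The number of higher members was 5 when control replicate 3 was left out and 6 when cKO replicate 1 was.

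The CPM values of the genotypes did not overlap for 7 members that were lower and 4 that were higher in cKO, where 6.54% and 5.61% of all loci had no overlap. In all, 24 members had a log2 fold change below 0 and 27 above 0. The 43 members with an unadjusted p of 0.05 or more ranged from -0.28 to 0.25 on this scale. The median log2 fold change of all members was 0.02, and that of all loci tested was 0.00. The highest library of a member exceeded its lowest by a median of 1.20-fold, and by 1.31-fold for all loci.

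**Figure D1:**
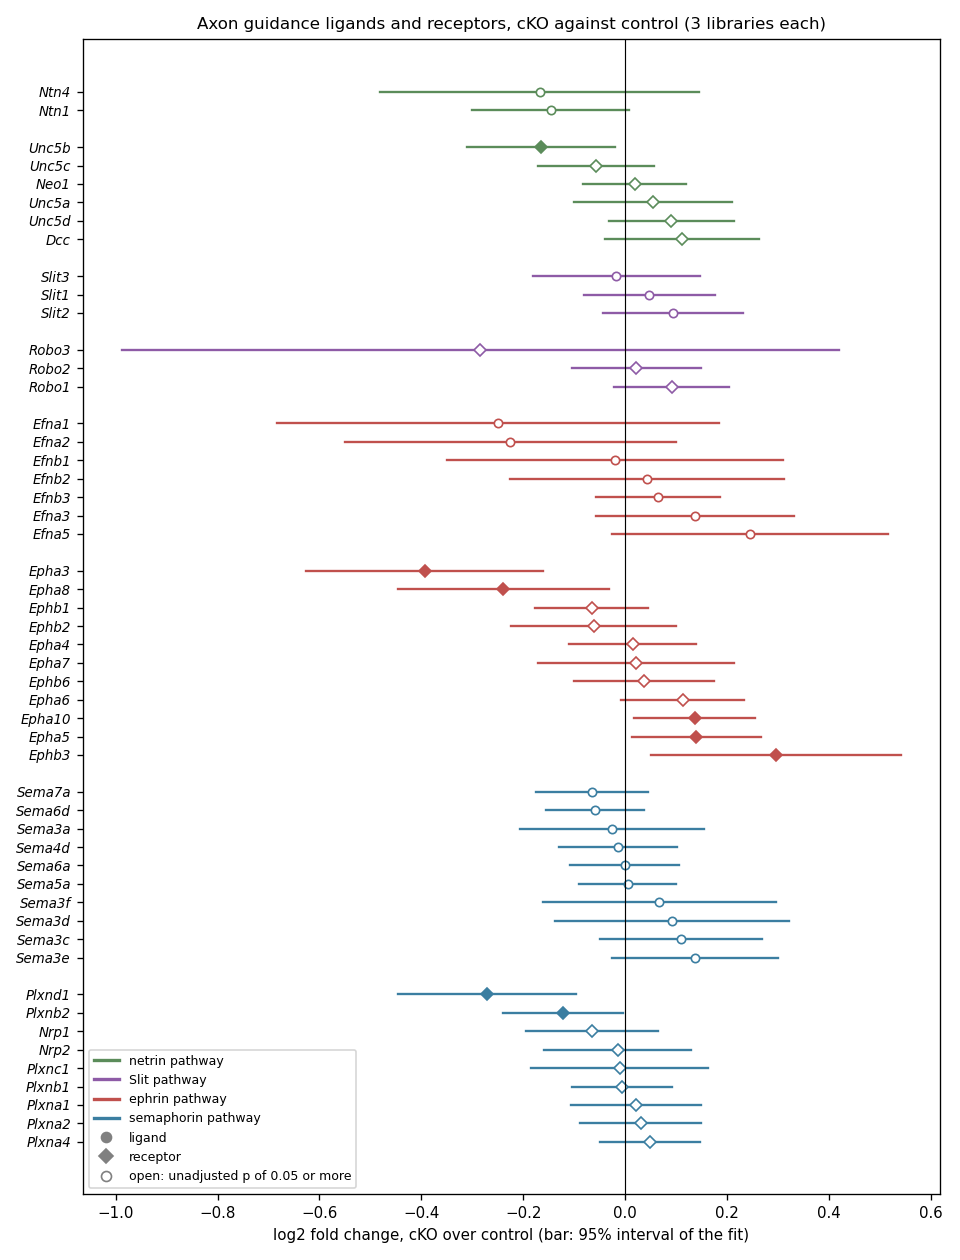
Log2 fold change of each member, cKO over control (x axis), with its 95% interval from the edgeR fit, grouped by pathway and role on the y axis. Filled symbols mark the 8 members with an unadjusted p under 0.05, and *Robo3* has the widest interval, from -0.99 to 0.42.

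The fits limited how large a difference could have gone unseen. The 95% interval of the fold change lay within 1.5-fold in either direction for 48 of 51 members and within 2-fold for all 51. The intervals of *Robo3*, *Efna1* and *Epha3* reached past 1.5-fold. *Robo3*, a receptor of the Robo family that commissural axons need to cross the midline, had the lowest level of all members, with a mean of 0.23 FPKM (fragments scaled to gene length and library size).

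FPKM was used to compare levels between genes and to sum levels over genes, and single genes were compared between genotypes by CPM. *Sema4d*, a membrane-bound semaphorin, and *Efnb3*, a midline B-type ephrin, had the highest levels, with means of 40.2 and 39.1 FPKM over the 6 libraries. *Sema6d* followed at 27.8 FPKM and *Neo1*, the netrin receptor neogenin, at 26.5 FPKM. The 5 membrane-bound semaphorins ranged from 19.7 to 40.2 FPKM, and the 5 secreted class 3 semaphorins from 4.03 to 7.78 FPKM. The ranges of these 2 groups of members did not overlap, but other membrane-bound semaphorins, which are not members, lay within the class 3 range, such as *Sema4b* at 4.71 FPKM and *Sema6c* at 5.13 FPKM (named after their values were seen).

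**Figure D2:**
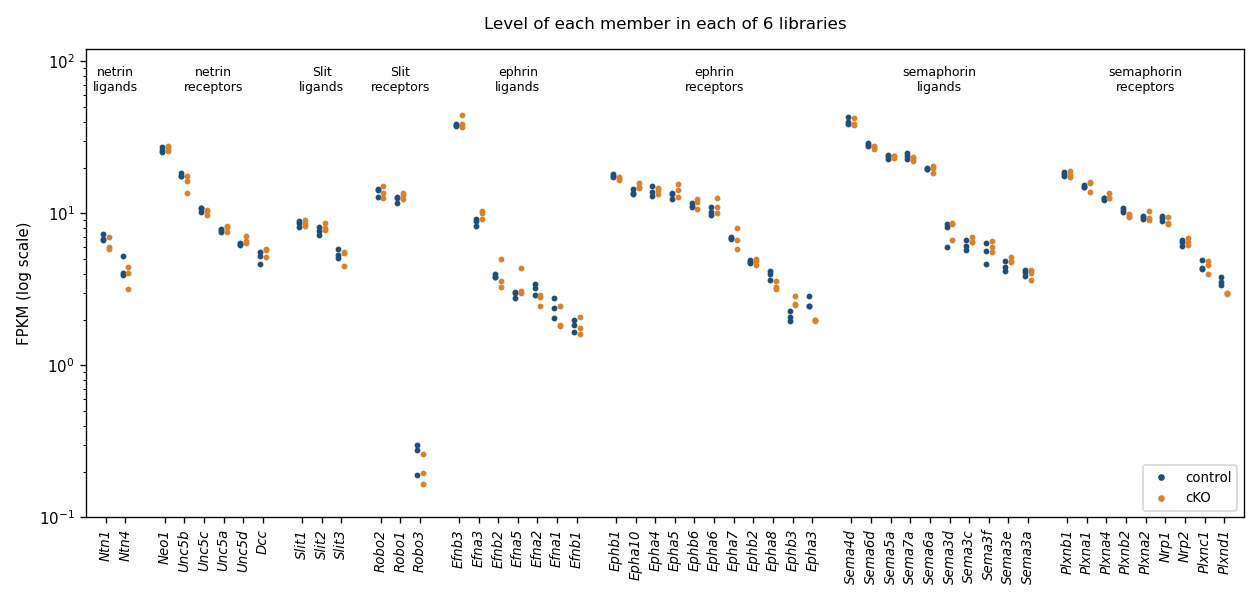
FPKM of each member in each of 6 libraries (y axis, log scale), with control libraries on the left and cKO libraries on the right of each gene name, grouped by pathway and role. Levels run from *Robo3* at a mean of 0.23 to *Sema4d* at a mean of 40.2 FPKM.

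Levels were also summed by pathway and role. The 10 semaphorin ligands together had 164 ± 3.83 FPKM in controls and 163 ± 3.16 FPKM in cKO (SD, n = 3 each). The 11 Eph receptors had 101 ± 2.00 FPKM in controls and 103 ± 4.24 FPKM in cKO (SD, n = 3 each). These differences were smaller than the SD of either genotype for the semaphorin ligands and than that of cKO for the Eph receptors. The 2 netrin ligands had 11.3 ± 1.07 FPKM in controls and 10.2 ± 0.10 FPKM in cKO (SD, n = 3 each), the only sum of the 8 whose difference exceeded the SD of both genotypes. By library this sum was 12.6, 10.8 and 10.7 FPKM in controls and 10.1, 10.1 and 10.3 FPKM in cKO, so control replicate 1 stood apart. Neither netrin was called, and the CPM of each overlapped between genotypes.

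Among the netrin pathway genes, *Ntn1*, the ligand with the higher level of the pair measured, had 39.7, 36.3 and 36.7 CPM in control replicates 1, 2 and 3, and 36.7, 33.3 and 32.0 CPM in cKO. Its genotypes overlapped, with a log2 fold change of -0.15 (SE 0.07, adjusted p = 0.756 from edgeR). *Neo1* had 197, 214 and 203 CPM in controls and 215, 205 and 202 CPM in cKO, and its log2 fold change was 0.02 (SE 0.05). The genotypes were mixed in their order for *Neo1*.

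*Unc5b*, a receptor of netrin repulsion, lies on chromosome 10 from 60762592 to 60831583 (mm10). It had 108, 102 and 102 CPM in controls and 101, 97.0 and 80.5 CPM in cKO. The cKO values all lay below the controls, and cKO replicate 3 was the lowest. The log2 fold change was -0.16 (SE 0.07, adjusted p = 0.638 from edgeR), without cKO replicate 3 it was -0.07, and without control replicate 1 it was -0.14 (adjusted p = 1.00 from edgeR). Beside these values, the Purkinje cell markers summed to 583 to 861 CPM in controls. In cKO replicates 1, 2 and 3 they summed to 341, 408 and 359 CPM, an order unlike that of *Unc5b*. The Bergmann glia markers summed to 515, 509 and 477 CPM in these libraries. The part of either list in the difference was not tested. *Unc5d*, of the same receptor family, had 59.9, 59.3 and 60.9 CPM in controls and 61.7, 67.8 and 62.4 CPM in cKO. Its cKO values lay above the controls, with a log2 fold change of 0.09 (SE 0.06, adjusted p = 0.855 from edgeR). *Dcc*, the receptor of netrin attraction, had 48.7, 55.4 and 59.1 CPM in controls and 54.8, 60.4 and 61.2 CPM in cKO, a log2 fold change of 0.11 (SE 0.07, adjusted p = 0.858 from edgeR). *Dcc*, *Unc5a*, *Unc5c* and *Ntn4* overlapped between genotypes.

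In the Slit pathway no member passed an unadjusted p of 0.05 and none had genotypes without overlap. *Slit1* had 65.8, 61.5 and 64.2 CPM in controls and 60.9, 68.7 and 68.3 CPM in cKO, a log2 fold change of 0.05 (SE 0.06). *Robo2* had 125, 115 and 127 CPM in controls and 116, 135 and 122 CPM in cKO, a log2 fold change of 0.02 (SE 0.06). The ranges of the genotypes overlapped for both genes. *Slit2* and *Robo1*, a ligand and a receptor of the same pathway, each had a log2 fold change of 0.09, with an SE of 0.07 and 0.05. *Slit3* and *Robo2* share their loci with the microRNA genes *Mir218-2* and *Mir691*, and *Nrp1* shares its locus with *Mir1903*, so their fragments cannot be told apart.

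The 11 Eph receptors held 5 of the 8 members with an unadjusted p under 0.05, 2 lower and 3 higher. At that threshold 4.03% of all loci were lower and 2.91% were higher. *Epha3*, an A-type receptor of ephrin-A ligands, lies on chromosome 16 from 63543255 to 63864208 (mm10). It had 15.8, 13.8 and 13.1 CPM in control replicates 1, 2 and 3, and 10.9, 11.4 and 10.1 CPM in cKO. Every cKO library lay below every control. The log2 fold change was -0.39 (SE 0.11, adjusted p = 0.196 from edgeR). No other member had a smaller adjusted p in this fit, and that of *Epha3* ran from 0.144 to 0.944 over the alternatives. Beside these values, the granule neuron markers summed to 369 to 666 CPM in controls and 173 to 200 CPM in cKO, and their part in the difference was not tested.

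*Epha8*, another A-type receptor, had 20.1, 17.1 and 19.0 CPM in controls and 14.7, 17.3 and 15.6 CPM in cKO. Control replicate 2 lay below cKO replicate 2, so the genotypes overlapped. Its log2 fold change was -0.24 (SE 0.10, adjusted p = 0.626 from edgeR), and -0.19 without control replicate 1. *Ephb1*, the Eph receptor with the highest level at 17.4 FPKM, had 81.3, 86.2 and 81.4 CPM in controls and 79.4, 81.0 and 77.4 CPM in cKO. The cKO values lay below the controls by a narrow margin, with a log2 fold change of -0.07 (SE 0.05, adjusted p = 0.897 from edgeR). *Epha4*, a receptor that binds ephrins of both types, had 91.3, 86.6 and 100.1 CPM in controls and 89.8, 97.4 and 93.9 CPM in cKO, with overlapping genotypes and a log2 fold change of 0.02 (SE 0.06).

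Of the 11 Eph receptors, 7 had a log2 fold change above 0, and *Ephb3*, *Epha5* and *Epha10* were the 3 of these with an unadjusted p under 0.05. None of the 3 was under 0.05 by DESeq2 or without control replicate 1. *Ephb3*, a B-type receptor, had 8.27, 9.45 and 8.61 CPM in controls and 11.7, 10.4 and 10.3 CPM in cKO, a log2 fold change of 0.30 (SE 0.12, adjusted p = 0.587 from edgeR). *Epha10*, an Eph receptor without kinase activity, had 62.8, 61.3 and 64.5 CPM in controls and 66.1, 69.8 and 71.5 CPM in cKO, a log2 fold change of 0.14 (SE 0.06, adjusted p = 0.625 from edgeR). The genotypes did not overlap for either gene. *Epha5* had 83.2, 92.1 and 91.7 CPM in controls and 91.6, 97.6 and 105 CPM in cKO, a log2 fold change of 0.14 (SE 0.06, adjusted p = 0.651 from edgeR). Its cKO replicate 1 lay within the range of the controls.

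**Figure D3:**
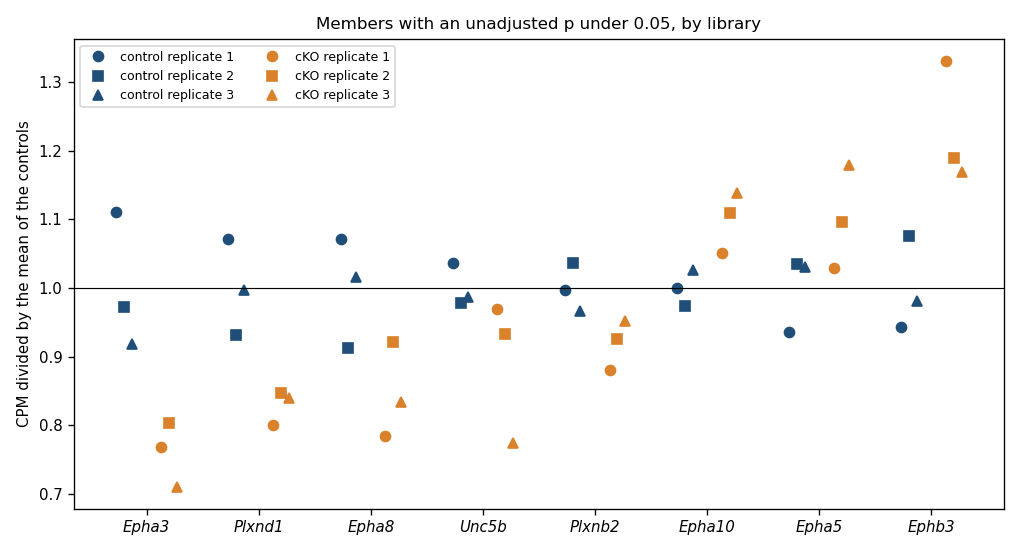
CPM of the 8 members with an unadjusted p under 0.05, divided by the mean of the 3 controls (y axis), with 1 symbol per library. *Epha3* and *Plxnd1* lie below every control in all cKO libraries, and *Epha8* and *Epha5* overlap.

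Among the ephrins, *Efnb3* had 106, 100 and 104 CPM in controls and 118, 102 and 105 CPM in cKO, a log2 fold change of 0.07 (SE 0.06), and cKO replicate 1 alone stood above the controls. *Efna2* had 5.00, 5.86 and 5.52 CPM in controls and 4.76, 4.99 and 4.26 CPM in cKO, a log2 fold change of -0.22 (SE 0.15, adjusted p = 0.865 from edgeR). *Efna3* had 16.1, 15.7 and 14.8 CPM in controls and 17.3, 17.7 and 16.2 CPM in cKO, a log2 fold change of 0.14 (SE 0.09, adjusted p = 0.865 from edgeR). These A-type ephrins did not overlap between genotypes and had opposite signs. *Efna1* and *Efna3*, which lie 32.9 kb apart on chromosome 3, had log2 fold changes of -0.25 and 0.14. *Efna1* overlapped between genotypes.

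Of the semaphorins, *Sema4d* had 151, 155 and 170 CPM in controls and 166, 152 and 152 CPM in cKO, a log2 fold change of -0.01 (SE 0.05). *Sema6d* had 184, 191 and 183 CPM in controls and 182, 174 and 179 CPM in cKO, a log2 fold change of -0.06 (SE 0.05, adjusted p = 0.892 from edgeR). *Sema6d* was the only semaphorin member without overlap, and its highest cKO value lay within 1 CPM of the lowest control. The other 8 semaphorins overlapped, with log2 fold changes from -0.07 for *Sema7a* to 0.14 for *Sema3e*.

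*Plxnd1*, the plexin that binds Sema3e, lies on chromosome 6 from 115954810 to 115995005 (mm10). It had 26.6, 23.1 and 24.8 CPM in controls and 19.9, 21.0 and 20.8 CPM in cKO. All cKO libraries lay below all controls, as they did for 6.54% of all loci. The summed granule neuron, Purkinje cell and Bergmann glia markers were also without overlap, and their part in the difference was not tested. The log2 fold change of *Plxnd1* was -0.27 (SE 0.08, adjusted p = 0.297 from edgeR). Its ligand *Sema3e* had a log2 fold change of 0.14 (SE 0.08, adjusted p = 0.800 from edgeR). *Plxnb2*, a receptor of class 4 semaphorins, had 74.1, 77.1 and 71.9 CPM in controls and 65.4, 68.8 and 70.7 CPM in cKO, also without overlap. Its log2 fold change was -0.12 (SE 0.06, adjusted p = 0.700 from edgeR). *Plxnb1*, the receptor of Sema4d, had 157, 163 and 161 CPM in controls and 165, 156 and 158 CPM in cKO, a log2 fold change of -0.01 (SE 0.05), with mixed genotypes. *Nrp1*, *Nrp2*, *Plxnc1* and the 3 class A plexins overlapped between genotypes.

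*Epha3* and *Plxnd1* were the members whose unadjusted p stayed under 0.05 in all 16 settings of the analysis, and the sequence before their start is shown for this reason, which was chosen after their values were seen. The sequences come from RefSeq (GRCm38.p6, the same build as mm10), are written 5′ to 3′ on the minus strand, and stop where the deposited locus starts. *Epha3* covers chr16:63864209-63864425 and *Plxnd1* covers chr6:115995006-115995255.
Epha3: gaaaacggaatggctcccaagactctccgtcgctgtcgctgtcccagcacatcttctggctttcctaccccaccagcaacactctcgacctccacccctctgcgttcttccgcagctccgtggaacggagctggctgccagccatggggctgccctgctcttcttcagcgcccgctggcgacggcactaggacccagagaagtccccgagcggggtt
Plxnd1: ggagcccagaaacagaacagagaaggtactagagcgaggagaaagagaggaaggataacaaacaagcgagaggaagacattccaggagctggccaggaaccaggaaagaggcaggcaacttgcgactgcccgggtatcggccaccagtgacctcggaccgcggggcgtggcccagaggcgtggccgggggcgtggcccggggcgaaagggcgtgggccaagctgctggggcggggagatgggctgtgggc
The 250 bases before the RefSeq start were searched on both strands for TAATTA, a core bound by many homeodomain proteins, and for TGATNNAT, a form of the joint Pbx and Hox site. Neither was found before *Epha3* or *Plxnd1*, so no letters are in capitals. Over all 32851 windows, 4.84% held TAATTA and 7.68% held TGATNNAT. Of the 42 member genes with a window, *Efna1*, *Epha5* and *Robo3* held the first and *Sema6d* held the second. The member windows were rich in G and C, with a median of 65.6% against 52.4% for all windows, and held a median of 17 CpG against 6.

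A further 35 guidance ligands, receptors and adhesion partners were read from the same fit. Of these, 33 were tested and 0 were called by edgeR or by DESeq2, and edgeR's p before adjustment was under 0.05 for 2 that were lower and 1 that was higher. Over all loci, 4.03% were lower and 2.91% were higher at that threshold. *Cntn2*, an axonal adhesion molecule, had 336, 310 and 301 CPM in controls and 299, 278 and 283 CPM in cKO, a log2 fold change of -0.14 (SE 0.05, adjusted p = 0.474 from edgeR). *Plxna3*, a semaphorin receptor, had 38.3, 37.1 and 35.2 CPM in controls and 33.5, 33.5 and 32.5 CPM in cKO, a log2 fold change of -0.15 (SE 0.07, adjusted p = 0.654 from edgeR). Both were lower in every cKO library than in every control.

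Of 36 effectors that act inside the cell below these receptors, 2 were called by edgeR, both lower in cKO, and p before adjustment was under 0.05 for 7, all of them lower. Over all loci, 0.503% were called lower, and 4.03% were lower at an unadjusted p under 0.05. *Chn2*, a chimaerin that inactivates the GTPase Rac, had 134, 119 and 108 CPM in controls and 88.8, 84.3 and 73.7 CPM in cKO, and it fell by 0.55 on the log2 scale (SE 0.08, adjusted p = 0.00160 from edgeR). *Tiam1*, which activates Rac, had 104, 82.9 and 79.9 CPM in controls and 63.4, 68.9 and 69.9 CPM in cKO, and it fell by 0.40 on the log2 scale (SE 0.08, adjusted p = 0.0337 from edgeR). All cKO libraries lay below all controls for both genes. The call of *Tiam1* was lost without control replicate 1 (log2 fold change -0.27, adjusted p = 0.188 from edgeR). It was also lost without cKO replicate 1, 2 or 3, where the log2 fold change was -0.36, -0.41 and -0.43 (adjusted p = 0.0506, 0.0988 and 0.0644 from edgeR). By limma on log2(FPKM + 1), neither was called (adjusted p = 0.318 for *Chn2* and 0.516 for *Tiam1*), but that fit called 0 loci over the whole table.

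Summed markers of cerebellar cells were also lower in the cKO libraries, but not all of them are restricted to the cerebellum. By in situ hybridization the paper also detected *Itpr1*, *Calb1* and *Cbln1* in nuclei of the brainstem. *Itpr1*, with a mean of 387 CPM in controls, weighed most in the Purkinje cell sum. *Slc1a3* and *Sept4*, with 298 and 252 CPM, weighed most in the Bergmann glia sum. The 7 granule neuron markers summed to 369 to 666 CPM in controls and 173 to 200 CPM in cKO, and 6 were called lower. The 6 Purkinje cell markers summed to 583 to 861 CPM in controls and 341 to 408 CPM in cKO, with 5 called lower, and the 4 Bergmann glia markers to 553 to 624 CPM and 477 to 515 CPM, with 3 called lower. That compares with 0.503% of all loci called lower. The paper had already reported several of these markers lower in the same libraries, among them *Gabra6*, *Car8* and *Slc1a3*. The calls of these lists are therefore not separate evidence. No marker of these lists was at 0 in any library. Control replicate 1 had the highest sum of each list, and also the highest level of *Epha3*, *Plxnd1*, *Unc5b*, *Epha8*, *Cntn2*, *Plxna3*, *Chn2* and *Tiam1*. *Plxnb2* was highest in control replicate 2. Among the cKO libraries, replicate 2 had the highest granule neuron and Purkinje cell sums and the highest *Epha3*, *Plxnd1* and *Epha8*. The Bergmann glia sum, *Unc5b*, *Cntn2*, *Chn2* and, by a narrow margin, *Plxna3* were highest in cKO replicate 1. *Tiam1* and *Plxnb2* were highest in cKO replicate 3. Without control replicate 1 the log2 fold changes were -0.31 for *Epha3*, -0.22 for *Plxnd1* and -0.47 for *Chn2*. In that fit *Unc5b*, *Epha8*, *Cntn2* and *Plxna3* no longer had an unadjusted p under 0.05. The part of the cerebellar markers in the differences of these genes was not tested. None of the markers of the other 8 cell types was called by edgeR. All 8 brainstem neuron markers and all 5 choroid plexus and ependyma markers had a log2 fold change above 0. Among these, *Dbh* was at 0.46 and *Ttr* at 0.37 (adjusted p = 0.297 and 0.145 from edgeR). Of the 5 meningeal fibroblast markers 4 lay below 0, and the other lists had both signs.

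**Figure D4:**
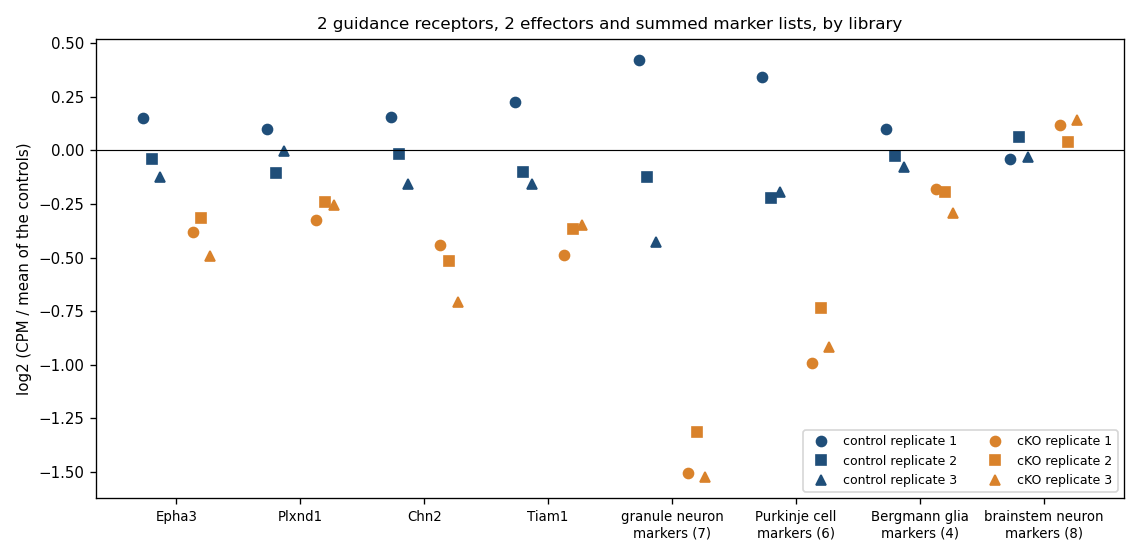
Log2 of CPM over the mean of the 3 controls (y axis) for *Epha3*, *Plxnd1*, *Chn2*, *Tiam1* and the summed markers of 4 cell types, with 1 symbol per library and the number of genes in brackets. Granule neuron markers lie lowest in cKO, at 173 to 200 CPM, and control replicate 1 is the highest library for all but the brainstem neuron markers.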

How the data were processed

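RNA was measured in 3 *Hoxa5* control and 3 *Hoxa5* cKO libraries, each from 3 pooled brainstems. Per the labels, the authors called bases with CASAVA 1.6, aligned reads to mm10 with TopHat2 2.0.9, assembled transcripts with Cufflinks 2.2.0 and quantified loci with Cuffdiff. The deposited fragment counts are whole numbers, and the deposited FPKM was scaled between libraries by the authors with Cuffdiff. A further 2 columns of scaled fragments were not used. Whether counting used strand is not given in the sources used here. The table's replicate numbers serve as names within a genotype. p-values measure the spread between pools.

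Counts were normalized by TMM, filtered with filterByExpr and tested with edgeR 4.0.16 (R 4.3.3; threshold 0.05 after Benjamini-Hochberg adjustment over all loci). Alternatives used DESeq2 1.42.0, limma 3.58.1 on log2(FPKM + 1) and log2(FPKM + 0.1), other scalings and filters, summed loci, each library left out and a replicate block. The code was tested on simulated data. Tables were made with Python 3.11.15, pandas 2.3.3 and scipy 1.17.1.

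The members and gene lists were chosen with earlier results of these data known. Values in every library are given for members that were called, had an unadjusted p under 0.05, had no overlap of CPM or had the highest FPKM of their family's ligands or receptors, and for the called genes of the other lists, or otherwise the 2 with the smallest p. Values of *Dcc* and *Epha4* by library were added after they were seen.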

Additional observations from a re-analysis of the deposited data

How the results depend on the processing

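No member was called under any of the 16 settings, and 19 of 51 members changed sign in at least 1 of them, none with a log2 fold change above 0.09 in size in the reported fit, and up to 0.21 in size over the settings. The fold changes of a chosen part of the genes named here were fitted again under the 15 alternatives. Of the 536 values obtained, 508 kept their sign and their side of the threshold, 9 lost a call, 1 gained one and 18 changed sign. The cause was not tested. Over all loci, 116 were called, against 0 and 1 by limma on log2(FPKM + 1) and log2(FPKM + 0.1), 221 without a filter, 76 with at least 50 fragments in 3 libraries, and 44 to 126 with a library left out, lowest without control replicate 1 and 65 without cKO replicate 3. Members lower at an unadjusted p under 0.05 numbered 3 by DESeq2, 2 by either limma fit and 2 to 4 with a library left out. Members higher numbered 0 by DESeq2, 5 without a filter and 0 to 6 with a library left out. Called effectors numbered 0 by either limma fit, 1 with at least 50 fragments, where fewer loci were tested, and 1 to 2 with a library left out. *Robo2* reversed to -0.0137 and -0.0148 by the limma fits with 1 and 0.1, and *Plxnb1* to 0.0071 with upper-quartile factors and 0.0004 with at least 50 fragments. With a library left out, the log2 fold change ran from -0.0088 to 0.0519 for *Neo1* (below 0 without control or cKO replicate 1), from -0.0395 to 0.0698 for *Robo2* (below 0 without control or cKO replicate 2), from -0.0567 to 0.0352 for *Sema4d* (above 0 without control replicate 3, cKO replicate 2 or 3) from -0.0288 to 0.0147 for *Plxnb1* (above 0 without control replicate 2, cKO replicate 2 or 3), from -0.1616 to 0.1619 for *Efnb2* (below 0 without cKO replicate 3), from -0.0315 to 0.0718 for *Epha4* (below 0 without control or cKO replicate 2) and from -0.0420 to 0.2060 for *Sema3d* (below 0 without control replicate 2). The deviations of same-numbered libraries had correlations of 0.032, -0.082 and 0.05, so no pairing by number was seen. With the replicate block 130 loci were called, 122 lower and 8 higher, with 0 members among them. Depth limited *Robo3*, which had 10 to 19 fragments in each library.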

Other observations

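Some ephrin ligands stood apart in single libraries. *Efna5*, an A-type ephrin, had 12.5, 13.5 and 13.7 CPM in controls and 14.0, 13.5 and 19.5 CPM in cKO, and *Efnb2*, a B-type ephrin, had 17.2, 16.5 and 16.4 CPM in controls and 14.1, 15.7 and 21.7 CPM in cKO. Both were highest in cKO replicate 3. *Sema3d* was lowest in control replicate 2, at 38.0 CPM, and next lowest in cKO replicate 3, at 42.2 CPM, with 50.9 to 55.3 CPM in the other 4 libraries. These genes were chosen after their values were seen.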
